A study of Picea abies with 36 samples.

Results

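Late cytokinin-raised genes are 169 of the 70736 gene models counted in hypocotyls of Norway spruce (Picea abies) seedlings. After a single application of the cytokinin BAP they stood near the mock level at 5 days and above it at 15 days. They were also raised on average when the auxin IAA was applied together with BAP, and on average little changed by IAA alone. The hypocotyl is the stem between root and cotyledons. The seedlings, about 2 weeks old, were treated once at mid-hypocotyl with lanolin carrying BAP+IAA (135 mM and 50 mM), BAP alone (135 mM, 6-benzylaminopurine), IAA alone (50 mM, indole-3-acetic acid) or with Mock. Tissue was taken on days 5, 10 and 15 after application, with 3 libraries per treatment and day. The labels give no genotype or strain, do not state what Mock held, and do not say whether the 3 libraries of a group came from separate plants, so the p-values below rest on a library-to-library spread that may be technical.

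The members were chosen by their measured values in these same libraries. Levels were expressed as CPM, the reads of a gene model per 1000000 reads of its library. Log2 ratios to Mock were taken of mean CPM after adding 0.5 CPM. A member had at least 1 CPM as the mean of the 9 BAP or the 9 Mock libraries. Its ratio of BAP to Mock was at least 1.5 at 15 days, under 0.75 at 5 days, and from 1 to under 2 over all days. Its ratio of IAA to Mock lay within 1 of 0 and that of BAP+IAA to Mock was at least 1, both over all days. All 169 models that met these limits are described, since a maximum of 200 was not reached. At 15 days the BAP ratio nearest to its limit was 1.51 inside and 1.49 outside, and at 5 days 0.746 inside and 0.755 outside. The corresponding values for BAP over all days were 1.01 and 0.986 at the lower limit, and 1.99 and 2.05 at the upper one. For BAP+IAA they were 1.0012 inside and 0.996 outside, and for IAA 0.996 inside and 1.0004 outside at the upper limit and -0.988 inside and -1.11 outside at the lower one. All values that entered this choice are given below as a description, with no test.

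As background, cytokinins are sensed by membrane histidine kinases, from which a phosphorelay reaches response regulators in the nucleus. In Arabidopsis the type-A response regulators, which dampen the pathway, are known to answer within a short time of treatment, while genes that change over days follow later in the response or in tissue development. Auxin is sensed by a receptor complex that removes Aux/IAA repressors from auxin response factors. Both hormones together are known for their control of cell division and vascular development in plant stems. The deposited table does not pair its gene model identifiers with gene names, so no role is given to any member, and few identifiers are printed.

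The libraries held 12531117 to 22280720 reads in gene models, so that 1 read was worth 0.0449 to 0.0798 CPM. Within groups, Pearson's r of log2(CPM + 1) between libraries was 0.974 to 0.987 over gene models, which are not independent of each other. No pair of replicates was as alike as sampling alone would make it (lowest chi-square per degree of freedom 5.84). The columns number the collections from 1 to 3, read here in the order of the collection days, and every statement about a day rests on that reading. One control library stood apart for these genes. Replicate 1 of Mock at 10 days had the highest value of its group for 123 of the 169 members, against 21 each for replicates 2 and 3. The members' summed level there was 1480 CPM, against 1130 and 954 CPM in the other 10-day Mock libraries. Ratios to Mock at 10 days are therefore given with and without it. In whole hypocotyls, a change in the number of cells that express a gene and a change in its RNA per cell cannot be told apart.

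With BAP the median level of the members was higher at each collection than at the one before, while with BAP+IAA it was already raised at 5 days and higher again at 15 days. In BAP+IAA hypocotyls the median member stood at 2.92 CPM at 5 days, 2.42 CPM at 10 days and 7.03 CPM at 15 days. In BAP hypocotyls it stood at 0.923, 2.17 and 6.16 CPM on the same days. The median was 1.39, 0.945 and 1.38 CPM with IAA and 0.66, 1.03 and 0.708 CPM with Mock. Every library of BAP+IAA and of BAP at 15 days had a higher median than every IAA and Mock library of any day. The choice of members favoured this separation, so nothing is read from it. The BAP libraries at 5 days, with medians of 0.718 to 1.08 CPM, lay among those of IAA and Mock.

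**Figure D1:**
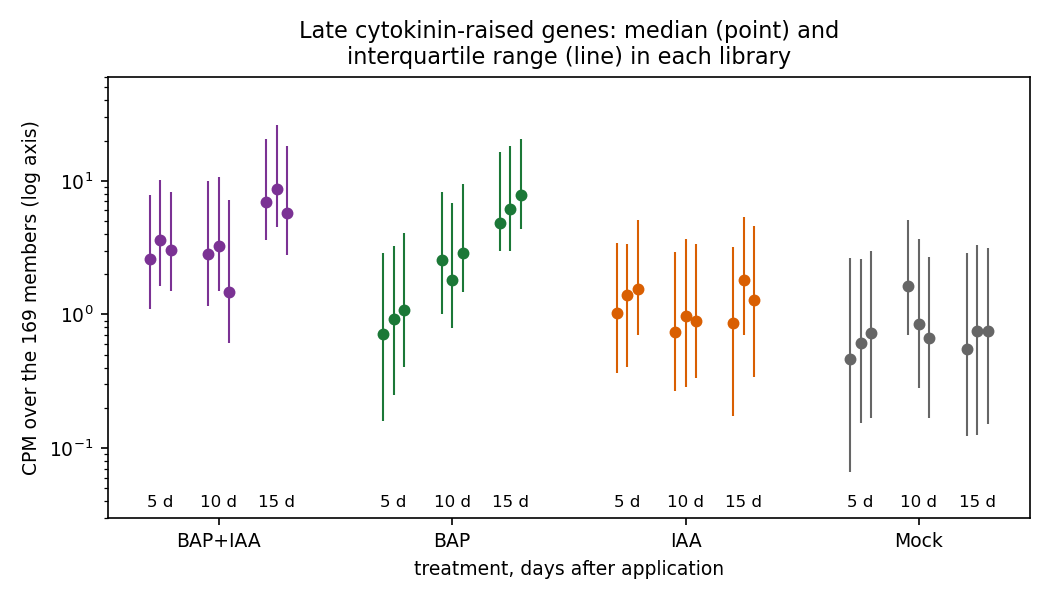
Points are the median CPM of the 169 members in each library and lines their interquartile range, on a log axis, by treatment and by day after application (3 libraries each). BAP libraries lie at medians of 0.718 to 1.08 CPM at 5 days and of 4.86 to 7.8 CPM at 15 days. BAP+IAA libraries lie at 2.59 to 3.58 CPM at 5 days and at 5.78 to 8.74 CPM at 15 days.

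Together the members took 0.483% of all reads in BAP+IAA hypocotyls at 15 days, 0.466% in BAP hypocotyls and 0.138% in IAA hypocotyls, against 0.0992% in Mock hypocotyls of that day. Their summed level at 15 days was 4710, 5670 and 4090 CPM in the BAP+IAA libraries, 3720, 4540 and 5710 CPM in the BAP libraries, 1130, 1650 and 1350 CPM in the IAA libraries, and 904, 1000 and 1070 CPM in the Mock libraries. With both cytokinin treatments every library lay above every IAA and Mock library, which the choice of members also favoured. A single member, MA_10433815g0030, held 23.1% of the sum with BAP+IAA, 21.1% with BAP, 38.1% with IAA and 33.7% with Mock at 15 days. Without it, the summed level at 15 days averaged 3710 ± 684 CPM with BAP+IAA, 3670 ± 705 CPM with BAP, 854 ± 185 CPM with IAA and 658 ± 67.1 CPM with Mock (SD, n = 3).

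Most members were of low abundance. Their mean over all libraries ran from 0.569 to 595 CPM, with a median of 2.39 CPM, and 75 of the 169 averaged under 2 CPM. The reads behind a member numbered at least 306 over the 36 libraries, with a median of 1303. At 15 days 95 members were under 1 CPM in Mock hypocotyls and 11 had no read there, while none was under 1 CPM with BAP or with BAP+IAA. The limit on the BAP ratio at 15 days, with 0.5 CPM added, nearly fixed this for BAP. The limit on the BAP+IAA mean favoured it for BAP+IAA. The highest group mean of the 12 was BAP+IAA at 15 days for 81 members and BAP at 15 days for 74. It was BAP+IAA at 10 days for 8 members and BAP+IAA at 5 days for the remaining 6.

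The 2 most abundant members had unlike courses. MA_10433815g0030 had 1080, 1240 and 1020 CPM in BAP+IAA hypocotyls at 15 days, 721, 924 and 1310 CPM with BAP, 454, 603 and 521 CPM with IAA, and 319, 332 and 352 CPM with Mock. At 5 days it had 622, 756 and 693 CPM with BAP+IAA, 375, 607 and 589 CPM with BAP, 508, 540 and 597 CPM with IAA, and 265, 359 and 365 CPM with Mock. Its libraries lay above those of Mock in all 3 hormone treatments on both days. MA_67006g0010 had 444, 503 and 658 CPM in BAP hypocotyls at 15 days, against 64.6, 88 and 119 CPM in Mock hypocotyls. With BAP+IAA it was already at 376, 537 and 507 CPM at 5 days, had 232, 201 and 110 CPM at 10 days, and had 301, 511 and 339 CPM at 15 days. With IAA alone it had 297, 242 and 277 CPM at 5 days and 62.7 to 115 CPM at 15 days. At 5 days it had 97.4 to 153 CPM with BAP and 58.2 to 120 CPM with Mock, so that the libraries of BAP+IAA and of IAA lay above those of Mock and the BAP libraries overlapped them.

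As a description, the shift between days lay in the BAP libraries far more than in Mock. The choice used these libraries, and the low Mock level at 5 days (median 0.66 CPM) limited any fall there, so nothing is read from it. Between 5 and 15 days the median log2 change of the members was 2.14 in BAP hypocotyls (interquartile range 1.71 to 2.68) and 0.06 in Mock hypocotyls (-0.16 to 0.33). The Mock mean was lower at 15 than at 5 days for 71 members and higher for 94. For 2 members the lower Mock level at 15 days accounted for at least as much of the shift of the BAP ratio as the higher BAP level. The change was spread over both intervals, with a median log2 change in BAP hypocotyls of 0.95 from 5 to 10 days and 1.14 from 10 to 15 days. The step was larger in the later interval for 93 members.

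The median log2 ratio of BAP to Mock was 0.36, 0.84 and 2.36 on the 3 collection days, against 0.04, 0.07 and 0.08 over all tested genes. Without replicate 1 of Mock at 10 days, the 10-day median was 1.09. The 10-day ratio lay between those of 5 and 15 days for 135 members, and for 157 without that library. All 3 BAP libraries lay above all 3 Mock libraries for 26 members on day 5, 81 on day 10 and 164 on day 15. The corresponding shares of all tested genes were 20.4%, 24.2% and 26.2%. The choice of members used the 5-day and 15-day libraries, and also the 10-day ones through the mean over all days, so nothing is read from these counts.

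The largest shifts of the BAP ratio between 5 and 15 days belonged to MA_168626g0010 (4.08) and MA_762132g0010 (4.06). MA_168626g0010 had 25.7, 13.9 and 20.5 CPM with BAP at 15 days, against 1.53, 1.25 and 1.05 CPM with Mock. At 5 days it had 2, 1.12 and 1.15 CPM with BAP, against 1.38, 2.83 and 2.69 CPM with Mock. Its groups overlapped at 5 days and were far apart at 15 days. MA_762132g0010 had 10.3, 23.5 and 24 CPM with BAP at 15 days, against 2.44, 1.06 and 2.02 CPM with Mock. At 5 days it had 2.79, 4.04 and 5.74 CPM with BAP, against 6.46, 1.53 and 18.2 CPM with Mock. Replicate 3 of Mock at 5 days thus lay above all 3 BAP libraries of that day.

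**Figure D2:**
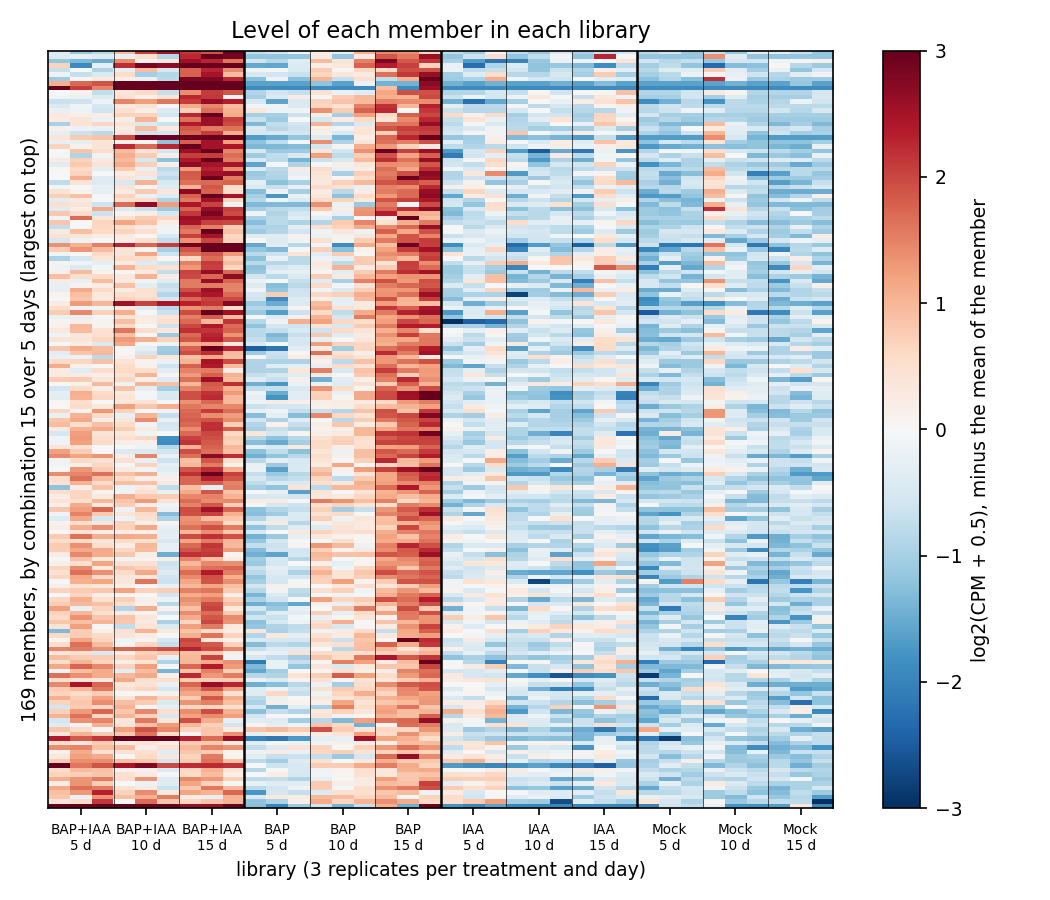
Each row is 1 of the 169 members and each column 1 of the 36 libraries, with rows ordered by the log2 change of BAP+IAA from 5 to 15 days. Colour is log2(CPM + 0.5) minus the mean of the row. The BAP+IAA and BAP libraries of 15 days are the darkest red, the BAP+IAA libraries of 5 days and replicates 1 and 2 of 10 days are mostly pale red, and replicate 1 of Mock at 10 days is paler than the other Mock libraries.

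The choice of members limited the BAP ratio at 5 days from above and the BAP+IAA mean from below, and so favoured a higher level with BAP+IAA than with BAP at 5 days. The values are given as a description. The members' median log2 ratio to Mock at 5 days was 1.38 with BAP+IAA, 0.36 with BAP and 0.61 with IAA. These ratios share the Mock libraries. All 3 BAP+IAA libraries lay above all 3 Mock libraries for 137 members at 5 days, 66 at 10 days and 164 at 15 days, where the shares of all tested genes were 27.0%, 26.2% and 28.5%. They lay above all 3 BAP libraries at 5 days for 109 members, against 17.0% of all tested genes. With IAA, 64 members had all 3 libraries above Mock at 5 days, against 26.7% of all tested genes. Nothing about the members is read from these counts.

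At 10 days the ratios to Mock with both hormones were lower than at 5 days for 125 members, for 112 without replicate 1 of Mock, and for 116 without replicate 3 of BAP+IAA at 10 days, which was low for these genes. The median ratio was 0.74 with BAP+IAA at 10 days, 0.96 without that Mock library and 0.95 without that BAP+IAA library. At 15 days it was 2.39, close to the 2.36 with BAP, and the ratio with BAP+IAA was above that with BAP for 90 of the 169 members. With IAA the median ratio was 0.61 on day 5, -0.15 on day 10 and 0.46 on day 15. The 10-day value was 0.08 without replicate 1 of Mock, so its sign rested on that library.

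The order in time of the BAP+IAA libraries was not used to choose the members, and no BAP or Mock library is among those compared. The choice did use the mean of the 9 BAP+IAA libraries, which a member could raise through its highest day alone. Without the BAP+IAA libraries of 15 days, 75 of the 169 members would have missed the limit on that mean, against 1 without those of 5 days and 2 without those of 10 days. Such members had to be high at 15 days, so each count of rises is also given for the 92 members that met the limit without the libraries of any single day, a division made after the data were seen. The test was edgeR's quasi-likelihood test in a single fit of all libraries and all 38239 gene models, with Benjamini-Hochberg adjusted p under 0.05 as the threshold for a call. The BAP and Mock libraries thus entered the estimate of spread behind each p-value. All 169 members passed the filter on low counts. In BAP+IAA hypocotyls 68 members rose at 15 days relative to 5 days and 0 fell, while 10.7% of all tested genes rose and 10.2% fell. At an unadjusted p under 0.05, 94 members were higher and 0 lower, against 6609 and 5976 of all 38239 tested genes. DESeq2 called 68 members higher and 0 lower, against 11.4% and 10.4% of all tested genes. Of the 92 members that met the limit on the BAP+IAA mean without any single day, 23 rose and 0 fell, with a median log2 change of 0.79. They were still chosen on the BAP and Mock libraries of 5 and 15 days. Over all 169 members the log2 change was positive for 91.7%, with a median of 1.12 (interquartile range 0.57 to 1.91), against a median of 0.02 over all tested genes. Of the 75 members under 2 CPM 26 rose, and of the 94 others 42. The count of 68 moved with single libraries. It was 38 without replicate 1 and 39 without replicate 3 of BAP+IAA at 5 days, and 40 without replicate 2 of BAP+IAA at 15 days, where 7.7%, 6.84% and 7.91% of all tested genes rose.

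Members are named below only where the libraries of the days compared did not overlap and the mean over all libraries was at least 1 CPM. Among these, the called rises were largest for MA_7352647g0010 and MA_35003g0010. MA_7352647g0010 had 4.24, 3.55 and 9 CPM in BAP+IAA hypocotyls at 15 days, against 0.341, 0 and 0.103 CPM at 5 days. Its log2 change was 5.22 ± 0.89 (SE, edgeR adjusted p = 0.000104). With BAP alone it reached 2.5, 2.37 and 1.21 CPM at 15 days, and no IAA or Mock library had more than 0.561 CPM. MA_35003g0010 had 4.87, 16.9 and 7.5 CPM in BAP+IAA hypocotyls at 15 days, against 0.341, 0.44 and 0.359 CPM at 5 days. Its log2 change was 4.63 ± 1.32 (SE, edgeR adjusted p = 0.016). It met the limit on the BAP+IAA mean only through the 15-day libraries, and the adjusted p was between 0.0209 and 0.0628 when single libraries were left out. It had no read in the BAP and Mock libraries of 5 days, and of the Mock libraries of 10 days replicate 1 held 2.4 CPM. With IAA it had 0, 4.93 and 0.607 CPM at 15 days, so that replicate 2 lay above the lowest BAP+IAA library of that day.

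From 10 to 15 days 57 members rose and 0 fell, against 3.58% and 3.27% of all tested genes. At an unadjusted p under 0.05, 111 were higher and 2 lower, against 4191 and 4009 of all 38239 tested genes. DESeq2 called 70 members higher and 0 lower, against 4.63% and 3.59% of all tested genes. A fit of only the BAP+IAA libraries of these days called 31 members higher, against 1.38% of the genes tested in it. Of the 92 members that met the limit on the BAP+IAA mean without any single day, 22 rose and 0 fell, with a median log2 change of 1.02. Over all 169 members the median was 1.38, and 91.7% of the members had a positive change. Replicate 3 of BAP+IAA at 10 days was low for these genes, with a summed level of 2250 CPM against 2950 and 2940 CPM in replicates 1 and 2, and 10 of the 169 members had their highest value of the group in it. Without it 11 members rose in this interval, against 1.04% of all tested genes, and the median log2 change was 1.12. The count was 18 without replicate 2 and 37 without replicate 1 of BAP+IAA at 15 days, where 1.54% and 1.99% of all tested genes rose. Of the 68 members that rose from 5 to 15 days, 32 also rose from 10 to 15 days. The most abundant member, MA_10433815g0030, which also met that limit only through the 15-day libraries, rose in both contrasts, by 0.67 ± 0.18 on the log2 scale at 15 against 5 days (SE, edgeR adjusted p = 0.00799) and by 0.999 ± 0.18 at 15 against 10 days (SE, edgeR adjusted p = 0.00149). MA_67006g0010 rose by 1.05 ± 0.32 at 15 against 10 days (SE, edgeR adjusted p = 0.0444), and with IAA its log2 change at 15 against 5 days was -1.58 ± 0.32 (SE, edgeR adjusted p = 0.000331).

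By the same criteria, MA_543289g0010 and MA_10428862g0010 had the largest called rises in this interval. MA_543289g0010 had 3.5, 6.89 and 4.5 CPM in BAP+IAA hypocotyls at 15 days, against 0.383, 0.24 and 0.0607 CPM at 10 days, a log2 change of 4.41 ± 1.01 (SE, edgeR adjusted p = 0.00836, and 0.0136 to 0.0657 without single libraries). At 5 days it had 0.409, 0.88 and 2.1 CPM, so that its level at 10 days was the lowest of the 3. The second, MA_10428862g0010, had 3.62, 4.48 and 1.57 CPM at 15 days, against 0.614, 0.24 and 0 CPM at 10 days, a log2 change of 3.51 ± 1.04 (SE, edgeR adjusted p = 0.0393). Its adjusted p was 0.0339 to 0.178 when single libraries were left out, and 0.0526 with no filter on low counts. Both met the limit on the BAP+IAA mean only through the 15-day libraries.

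Between 5 and 10 days few members moved with both hormones. In that interval 9 members rose and 3 fell, against 4.79% and 3.81% of all tested genes, or 5.33% and 1.78% of the members, shares near those of all genes. Of the 92 members that met the limit on the BAP+IAA mean without any single day, 8 rose and 3 fell, or 8.7% and 3.26%. Their median log2 change was -0.42. Over all 169 members the median log2 change was -0.34, against 0.00 over all tested genes. It was -0.09 without replicate 3 and -0.55 without replicate 1 of BAP+IAA at 10 days, -0.53 without replicate 2 of that day, and -0.18 without replicate 2 of BAP+IAA at 5 days. MA_7352647g0010 rose to 1.61, 4.09 and 5.58 CPM at 10 days, against the 5-day values above, a log2 change of 4.68 ± 0.89 (SE, edgeR adjusted p = 0.000961). MA_96649g0010 rose to 153, 281 and 183 CPM at 10 days, against 17, 7.23 and 4.56 CPM at 5 days, a log2 change of 4.45 ± 0.89 (SE, edgeR adjusted p = 0.0144, and 0.0267 to 0.0689 without single libraries). DESeq2 gave an adjusted p of 0.437 for it. At 15 days it had 98.3, 64.9 and 100 CPM.

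MA_96649g0010 was 1 of 2 members that averaged under 0.1 CPM both with IAA and with Mock. It had no read in any IAA or Mock library, nor in the BAP libraries of 5 and 10 days. Among the BAP libraries of 15 days it had 2.97 and 10.4 CPM in replicates 1 and 3 and no read in replicate 2. Its choice as a member thus rested on 2 of the 9 BAP libraries, while all 9 BAP+IAA libraries held it. The other, MA_10430954g0010, is named here after its values were seen. It had 2.73 to 5.07 CPM with BAP+IAA at 5 days, 29.8 to 119 CPM at 10 days and 35.7 to 59.9 CPM at 15 days, and among the BAP libraries 9.35 CPM in replicate 3 of 15 days and at most 0.844 CPM elsewhere.

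The members that fell numbered 1 without replicate 2 or replicate 3 of BAP+IAA at 5 days and 5 without replicate 2 of BAP+IAA at 10 days. In these fits 2.68%, 2.53% and 3.71% of all tested genes fell. Of the 3 members that fell from 5 to 10 days with both hormones, MA_67006g0010 had a log2 change of -1.38 ± 0.32 (SE, edgeR adjusted p = 0.00652, and 0.00731 to 0.0556 without single libraries), with the levels given above. The adjusted p was 0.0564 in a fit of the BAP+IAA libraries of these days alone. MA_128871g0010 had 1.23, 1.38 and 0.667 CPM at 10 days, against 3.21, 6.97 and 4.1 CPM at 5 days, a log2 change of -2.10 ± 0.63 (SE, edgeR adjusted p = 0.0337, and 0.0349 to 0.148 without single libraries). At 15 days it was back at 4.12, 7.89 and 6.14 CPM. Both had their lowest level of the 3 days at 10 days. No member fell in this interval when replicate 3 of BAP+IAA at 10 days was left out, against 2.01% of all tested genes.

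**Figure D3:**
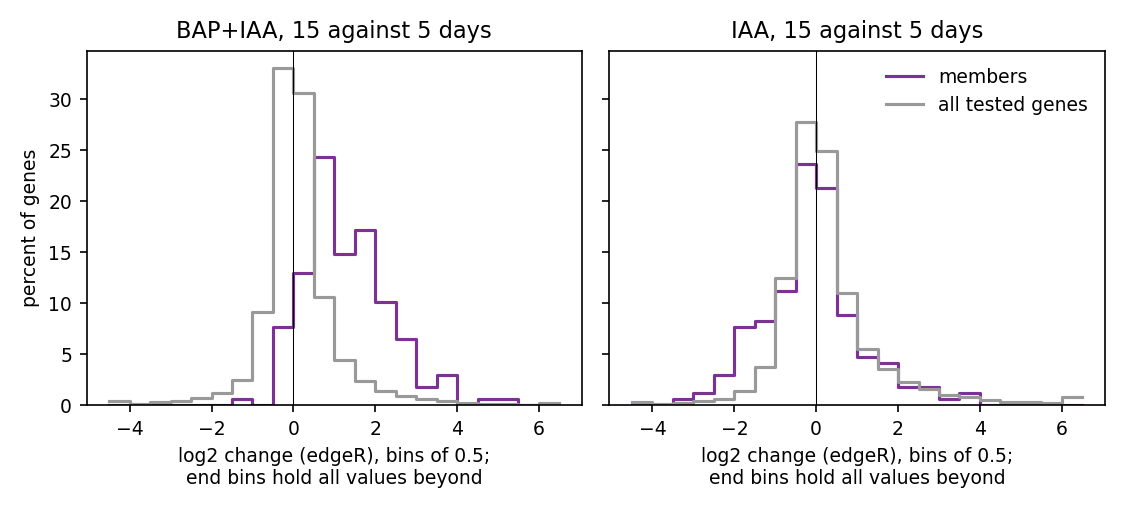
The share of genes in each bin of log2 change at 15 against 5 days is shown for the 169 members and for all 38239 tested genes, with BAP+IAA on the left and IAA on the right. With BAP+IAA the members lie to the right of all genes, with medians of 1.12 and 0.02. With IAA the medians are -0.06 and 0.05, and that of the members runs from -0.47 to 0.09 when single IAA libraries are left out.

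With IAA alone the 169 members were called in both directions in like numbers, but the 92 members defined above were not. From 5 to 15 days 15 members rose and 14 fell, while 21.3% and 16.7% of all tested genes did. The members called made up 8.88% and 8.28%. Of the 92 members that met the limit on the BAP+IAA mean without any single day, 7 rose and 14 fell, with a median log2 change of -0.21. Of the 75 that met it only through the 15-day libraries, 8 rose and 0 fell. For all members the IAA ratio to Mock over all days was limited by the choice. The members' IAA level was lower than that of all tested genes, with medians of 1.25 and 5.9 CPM, so the shares are not compared. The members' median log2 change was -0.06, against 0.05 over all tested genes. Its size and sign rested on single libraries, since it was -0.47 without replicate 2 and 0.09 without replicate 1 of IAA at 15 days, and -0.17, -0.16 and 0.08 without replicates 1, 2 and 3 of IAA at 5 days. The number that rose ranged from 7 to 15 and the number that fell from 9 to 18 when single IAA libraries were left out, with 7 risen without replicate 2 or 3 of 5 days, 8 without replicate 3 and 9 without replicate 2 of 15 days. The fallen numbered 9 without replicate 1 of 15 days or replicate 3 of 5 days. In the fits without single IAA libraries, 17.0% to 18.4% of all tested genes rose and 14.3% to 15.0% fell.

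By the same criteria, MA_7197623g0010 and MA_20537g0010 had the largest called rises with IAA. MA_7197623g0010 had 4.26, 5.34 and 3.78 CPM in IAA hypocotyls at 15 days, against 0.0727, 0.359 and 0.421 CPM at 5 days, a log2 change of 3.88 ± 0.62 (SE, edgeR adjusted p = 1.31e-05). Mock had 2.64, 2.6 and 3.37 CPM of it at 5 days, so IAA hypocotyls lay below Mock then. MA_20537g0010 had 6.73, 7.98 and 10.6 CPM in IAA hypocotyls at 15 days, against 1.82, 0.808 and 1.61 CPM at 5 days, a log2 change of 2.62 ± 0.36 (SE, edgeR adjusted p = 1.67e-06). Its mean was higher at 15 than at 5 days under all 3 hormone treatments and with Mock. With BAP+IAA it had 25.5, 37 and 31.1 CPM at 15 days, against 3.34, 3.52 and 4.97 CPM at 5 days, a log2 change of 2.95 ± 0.33 (SE, edgeR adjusted p = 2.78e-07). At 15 days it had 16.6, 16 and 15.7 CPM with BAP and 2.87, 4.94 and 3.59 CPM with Mock.

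The largest called falls with IAA by these criteria were those of MA_76052g0010 and MA_10433791g0020, while log2 changes over all members reached down to -3.12. MA_76052g0010 had 0.173, 0.352 and 0.27 CPM in IAA hypocotyls at 15 days, against 0.364, 1.44 and 2.6 CPM at 5 days, a log2 change of -2.44 ± 0.67 (SE, edgeR adjusted p = 0.00443). With BAP+IAA it had 3.12, 3.7 and 3.21 CPM at 15 days, against 2.66, 4.34 and 1.9 CPM at 5 days, and these groups overlapped. MA_10433791g0020 had 0, 0.117 and 0.202 CPM in IAA hypocotyls at 15 days, against 1.02, 0.314 and 0.351 CPM at 5 days, a log2 change of -2.32 ± 0.82 (SE, edgeR adjusted p = 0.0247). Its adjusted p was between 0.0178 and 0.174 when single libraries were left out.

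**Figure D4:**
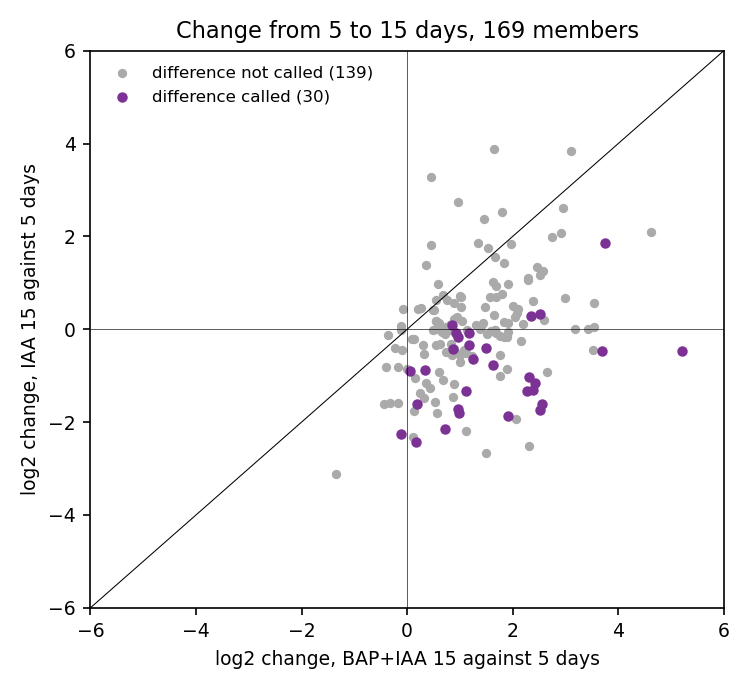
Each point is 1 of the 169 members, placed by its log2 change at 15 against 5 days with BAP+IAA (horizontal) and with IAA (vertical). The line marks equal change, and the 30 members whose difference between the treatments was called are in purple, all below the line.

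The difference between these time courses was tested directly, as the change from 5 to 15 days with BAP+IAA minus that with IAA. It was higher with BAP+IAA for 30 members and lower for 0, against 5.14% and 7.12% of all tested genes. At an unadjusted p under 0.05 it was higher for 67 members and lower for 1, against 4436 and 5154 of all 38239 tested genes. DESeq2 called it higher for 42 members and lower for 1, against 5.84% and 8.2% of all tested genes. Of the 92 members that met the limit on the BAP+IAA mean without any single day, it was higher for 18 and lower for 0. Over all 169 members the median difference was 1.32 on the log2 scale, against -0.01 over all tested genes. Of the 68 members that rose with BAP+IAA, 21 had this difference called and 11 also rose with IAA. Of the 30 members with a called difference, 7 had fallen with IAA. For MA_96649g0010, which had no read in any IAA library, no SE was obtained, so its missing call does not show like courses. The count of 30 became 12 without replicate 1 of IAA at 15 days or replicate 3 of IAA at 5 days. It was 14 without replicate 2 of BAP+IAA at 15 days, 15 without replicate 1 and 17 without replicate 3 of BAP+IAA at 5 days, and 18 without replicate 3 of IAA at 15 days. In these fits the difference was called higher for 3.62% to 4.47% of all tested genes.

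MA_7352647g0010 and MA_10430372g0020 had the largest differences among members whose BAP+IAA libraries of 15 and 5 days did not overlap. MA_7352647g0010 had a difference of 5.69 ± 1.47 (SE, edgeR adjusted p = 0.00937, and 0.195 without replicate 3 of IAA at 5 days). MA_10430372g0020 had 11.9, 13 and 12.2 CPM with BAP+IAA at 15 days, against 1.64, 2.26 and 2.41 CPM at 5 days. With IAA it had 0, 0.469 and 0 CPM at 15 days, against 0.218, 0.269 and 1.26 CPM at 5 days. Its difference was 4.26 ± 1.40 (SE, edgeR adjusted p = 0.0486), a call that was lost in 9 of the 12 fits without a single library and with the replicate number as a block (adjusted p = 0.0588). It had no read in the Mock libraries of 5 and 15 days, and of those of 10 days replicate 1 held 3.72 CPM.

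Genes that met the same limits on abundance and on the means over all days, but whose BAP ratio was at least 0.75 at 5 days, numbered 248 and serve as the early-raised counterpart. No limit was set on their BAP ratio at 15 days, with a median of 1.58 against 2.36 for the members. The lists thus differ in the 15-day level required as well as in the 5-day one. Both lists were chosen on these libraries, so their counts are set side by side with no test, and the shares of the members include the 75 that met the limit on the BAP+IAA mean only through the 15-day libraries. With BAP+IAA from 5 to 15 days 40.2% of the members rose and none fell, and 28.2% of the early-raised genes rose and 10.1% fell. Of the 92 members that met that limit without the libraries of any single day, 23 rose and 0 fell. The share that rose was thus smaller among these 92 than among the early-raised genes, which were not divided in this way. From 10 to 15 days 33.7% of the members and 16.1% of the early-raised genes rose. In that interval 22 of the 92 rose, a larger share than among the early-raised genes. From 5 to 10 days 5.33% of the members and 10.1% of the early-raised genes rose. With IAA from 5 to 15 days 8.88% of the members rose and 8.28% fell, and 19% of the early-raised genes rose and 27.4% fell. The difference between BAP+IAA and IAA was called higher for 17.8% of the members and 22.2% of the early-raised genes. Early-raised genes were more abundant, with a median level at 15 days of 13.6 CPM with BAP+IAA, 12.2 CPM with BAP and 3.4 CPM with Mock.

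Members varied between replicates, and often in the same direction. Among members with a group mean of at least 1 CPM, the median coefficient of variation over 3 libraries was 25.8% to 41.5% in the 12 groups. Over all tested genes of at least 1 CPM, whose levels were higher, it was 12.6% to 15.3%. In BAP hypocotyls of 15 days, replicate 3 was the highest for 108 members, replicate 2 for 34 and replicate 1 for 27. With BAP+IAA at 15 days replicate 2 was the highest for 115 members, and with IAA at 15 days replicate 2 for 107. With BAP+IAA at 10 days replicate 1 was the highest for 91 members, replicate 2 for 68 and replicate 3 for 10. The part of these libraries in the results was not tested beyond the counts without them given above.

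**Figure D5:**
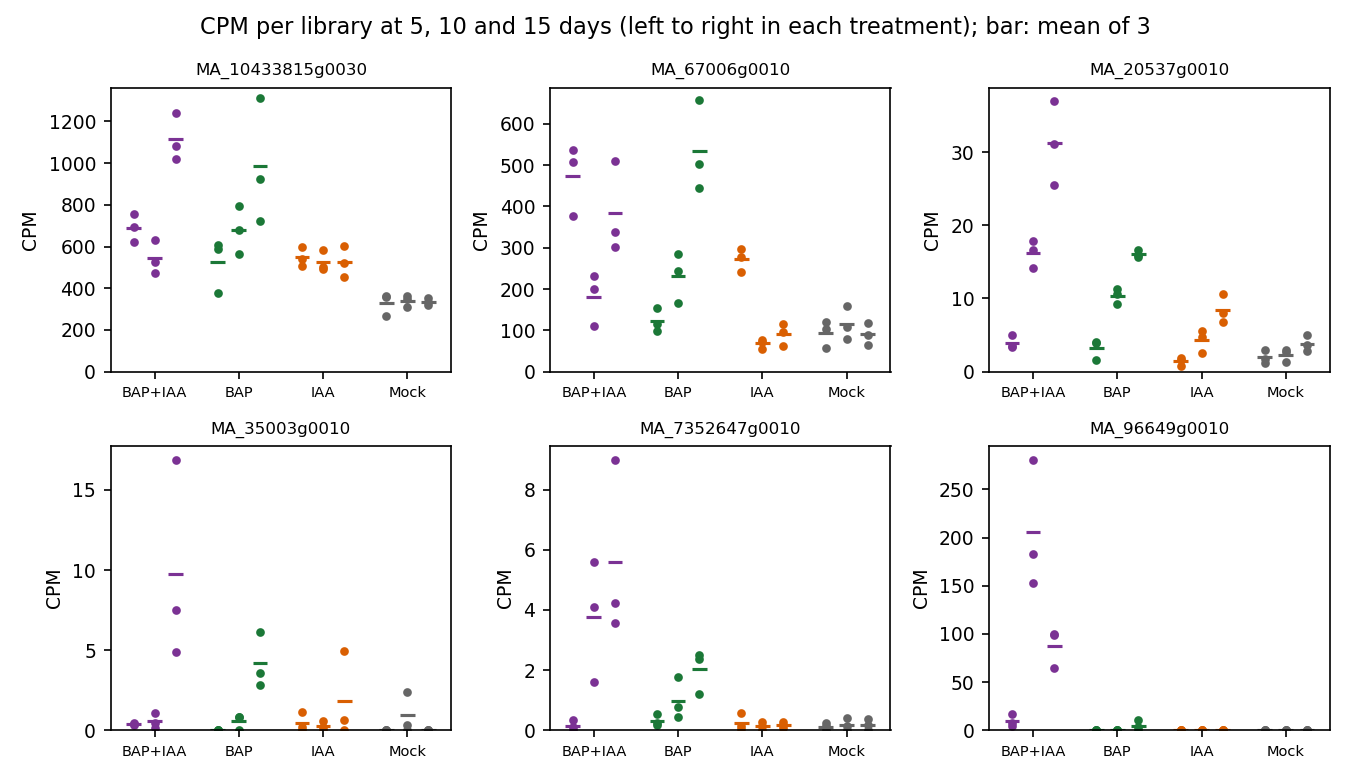
CPM of 6 members in every library, by treatment and, from left to right within it, at 5, 10 and 15 days, with bars at the mean of 3. MA_10433815g0030 and MA_67006g0010 are the most abundant, MA_20537g0010 is higher at 15 than at 5 days in every treatment, MA_35003g0010 is highest at 15 days with BAP+IAA, MA_7352647g0010 is raised with BAP+IAA from 10 days, and MA_96649g0010 has reads in all BAP+IAA libraries and in 2 BAP libraries, with 153 to 281 CPM at 10 days with BAP+IAA.

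The identifiers hold a part before the letter g that gene models can share. Among the members 6 shared it with another member, as 3 pairs, and the other 163 did not. Positions, sequences and annotations were not analysed here.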

How the data were processed

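Hypocotyl RNA was sequenced in 36 libraries. The authors deposited 1 table of raw read counts per gene model. Per the submitters' processing notes, reads went through Trimmomatic, STAR and HTSeq. No source used here gives their versions, the genome build, the annotation or whether counting used strand. Unstranded counting would mix reads of overlapping genes, and near-identical copies could share reads. Groups were read from the column names, whose collection number was taken as the day. The members, the comparison list and all rules were chosen with earlier results of these data known. CPM was the count over the column sum. Changes were tested with edgeR 4.0.16 (R 4.3.3, limma 3.58.1), using TMM factors, filterByExpr, robust quasi-likelihood fits of 12 group means (24 residual degrees of freedom), 2-sided tests and Benjamini-Hochberg adjustment over 38239 gene models. The tests were checked on simulated data. The SE is the log2 change over the square root of F. Named members were the 2 with the largest shift of the BAP ratio, the 2 most abundant, and per test the 2 largest called rises and falls without overlap of libraries (asked of BAP+IAA at 15 and 5 days for the difference) and with at least 1 CPM on average. Alternatives were other scalings, no filter on low counts, DESeq2 1.42.0, a replicate block, fits of only the groups compared, each library left out, and other settings of the choice of members.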

Additional observations from a re-analysis of the deposited data

Results flagged for a closer look

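The change from 5 to 15 days differed between BAP+IAA and IAA hypocotyls, by the direct test of that difference, for 30 members, all with the larger value under BAP+IAA. Of these, 18 were among the 92 members whose choice did not depend on the BAP+IAA libraries of a single day. MA_168626g0010 was not among the 92. Among the named members this held for MA_7352647g0010, with a difference of 5.69 on the log2 scale (edgeR adjusted p = 0.00937), and for MA_10430372g0020, with 4.26 (edgeR adjusted p = 0.0486). It also held for MA_168626g0010, with 3.58 (edgeR adjusted p = 0.0157), and for MA_76052g0010, with 2.60 (edgeR adjusted p = 0.0404). The log2 change of MA_76052g0010 was 0.16 with BAP+IAA (edgeR adjusted p = 0.865) and -2.44 with IAA. Its BAP+IAA libraries of 15 and 5 days overlapped. MA_168626g0010 had 20.7, 44.6 and 9.14 CPM with BAP+IAA at 15 days, against 3, 5.78 and 4.72 CPM at 5 days. With IAA it had 0.288, 2.52 and 0.54 CPM at 15 days, against 0.582, 1.97 and 5.12 CPM at 5 days.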

How the results depend on the processing

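Counts of called members stayed within 1.5 times under RLE factors, total counts, no filter on low counts, DESeq2 and the replicate block, except that the difference between BAP+IAA and IAA gave 1 lower member with DESeq2, with the replicate block and in a fit of only the groups compared. The last fit also gave 1 lower member for BAP+IAA at 15 against 5 days and 31 higher members at 15 against 10 days. Without single libraries, higher members numbered 38 to 64 and lower ones 0 to 0 for BAP+IAA at 15 against 5 days, 6 to 8 and 0 to 5 at 10 against 5 days, and 11 to 58 and 0 to 1 at 15 against 10 days. For IAA at 15 against 5 days they numbered 7 to 15 and 9 to 18, and for the difference 12 to 38 and 0 to 1. The cause was not tested. With the replicate number as a block, 68, 9, 60 and 15 members were higher in these 4 time contrasts and 30 in the difference. Deviations of same-numbered libraries had a median r of 0.07 over 198 pairs (-0.124 to 0.354, with 77 pairs over 0.1), above the -0.043 of differently numbered ones. Since not every pair was over 0.1 and the labels state no shared source, the numbers were not taken to pair the libraries. The choice of members gave 128 genes (80 shared) with 0.1 CPM added, 184 (103) with 1 CPM added, 116 (62) with median CPM and 150 (134) with TMM-scaled CPM. Without single libraries it gave 133 to 200, with at least 114 shared. An alternative chosen after seeing the data kept the 92 members that met the limit on the BAP+IAA mean without the libraries of any single day. It gave 23 higher members for BAP+IAA at 15 against 5 days, 8 at 10 against 5 days and 22 at 15 against 10 days. It gave 7 for IAA and 18 for the difference. With IAA 14 of the 92 were lower, and with BAP+IAA 3 were lower at 10 against 5 days. By its construction this alternative counts fewer members and leaves out those raised mostly at 15 days.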
